A study of Rattus norvegicus with 16 samples.

Results

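The genes described here are 10 early response genes: Egr1, Egr2, Myc, Ier2, Nr4a1, Klf2, Klf4, Klf6, Klf9 and Klf10. They were taken by name from the array annotation, and all 10 were found among 14217 genes that had a probe set with 1 gene symbol. Expression was measured in the most proximal piece of the initial segment of the epididymis of adult male Sprague-Dawley rats, on 16 arrays in 4 groups of 4. The groups were sham operation, and 6, 12 and 18 h after efferent duct ligation, which ties off the ducts that carry fluid from the testis. The sham side was, by the labels, the other side of a ligated animal, so sham tissue also came from rats that had been operated on. The labels give sham a time of 0 and do not say how many hours after surgery it was taken, so hours since surgery and time of day cannot be told apart from ligation. The replicates are called biological, but no label ties a number to an animal, so p-values measure the spread between these arrays.

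Early response genes are transcribed within a short time of a growth factor, cytokine or stress signal, without new protein synthesis. Many are switched on when kinases such as ERK phosphorylate ternary complex factors bound with SRF at CArG boxes, or when CREB proteins are activated at cyclic AMP response elements (CRE). Their products are mostly transcription factors that act on genes that respond later. In the initial segment, ERK activity is known to depend on factors that arrive with the luminal fluid from the testis.

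The sequence before the start site of 7 of the 10 genes was in the RefSeq table of the rat assembly GRCr8, as windows of 250 bases before to 50 bases after the annotated start. Windows are printed for 5 members whose differences from sham or 6 h passed the test at some time. They are shown to set the CArG boxes and CRE letters of 4 genes that rose beside those of Egr2, which fell. Capitals mark CArG boxes and the CRE core TGACG, on either strand (CGTCA on the printed strand). The full CRE, TGACGTCA, contains 2 overlapping cores. The windows are chr18:26736828-26737127 on the plus strand, chr20:21054392-21054691 on the minus strand, chr19:40399123-40399422 on the plus strand, chr7:134259888-134260187 on the plus strand and chr17:69458429-69458728 on the minus strand.
Egr1: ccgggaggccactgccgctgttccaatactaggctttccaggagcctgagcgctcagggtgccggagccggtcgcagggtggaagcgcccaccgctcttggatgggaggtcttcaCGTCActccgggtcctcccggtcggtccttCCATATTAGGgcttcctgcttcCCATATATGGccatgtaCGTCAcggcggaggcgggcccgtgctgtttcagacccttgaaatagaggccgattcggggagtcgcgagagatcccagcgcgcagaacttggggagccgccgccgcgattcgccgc
Egr2: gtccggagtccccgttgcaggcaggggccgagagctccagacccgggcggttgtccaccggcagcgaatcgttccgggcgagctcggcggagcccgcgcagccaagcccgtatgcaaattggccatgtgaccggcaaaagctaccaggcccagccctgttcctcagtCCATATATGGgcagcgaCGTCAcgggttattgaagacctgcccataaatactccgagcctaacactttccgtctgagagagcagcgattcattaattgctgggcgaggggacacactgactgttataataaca
Ier2: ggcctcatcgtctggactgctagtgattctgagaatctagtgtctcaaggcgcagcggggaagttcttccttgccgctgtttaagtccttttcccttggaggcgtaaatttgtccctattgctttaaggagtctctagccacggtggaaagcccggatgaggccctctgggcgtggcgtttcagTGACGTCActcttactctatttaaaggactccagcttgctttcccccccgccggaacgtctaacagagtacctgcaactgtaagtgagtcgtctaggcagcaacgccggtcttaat
Nr4a1: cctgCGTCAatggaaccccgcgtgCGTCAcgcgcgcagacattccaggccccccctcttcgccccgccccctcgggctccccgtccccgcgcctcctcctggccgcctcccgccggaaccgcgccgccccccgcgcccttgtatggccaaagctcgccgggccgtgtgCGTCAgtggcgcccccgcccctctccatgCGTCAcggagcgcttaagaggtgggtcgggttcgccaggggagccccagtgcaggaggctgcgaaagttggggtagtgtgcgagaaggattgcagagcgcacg
Klf6: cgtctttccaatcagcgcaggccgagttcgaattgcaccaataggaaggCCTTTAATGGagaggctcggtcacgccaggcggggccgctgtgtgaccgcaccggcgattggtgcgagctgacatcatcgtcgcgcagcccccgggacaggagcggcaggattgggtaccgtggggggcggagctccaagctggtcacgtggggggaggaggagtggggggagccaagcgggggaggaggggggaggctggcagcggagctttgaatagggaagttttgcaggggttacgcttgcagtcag
The Egr1 window held 2 CArG boxes, CCATATTAGG and CCATATATGG, with first bases at positions -105 and -83 from the start. The Egr2 window held 1, also CCATATATGG and also at -83, and both windows had CGTCA beginning at -66. Klf6 had 1 CArG box, CCTTTAATGG. Ier2 had 1 full CRE and Nr4a1 had 4 cores. The windows of Klf4 and Klf9, which were not called, are not printed. Klf9 held a core, TGACG at -79, and no CArG box, and Klf4 held neither. Over all 33469 windows of this length in the table, 1.64% held a CArG box, 1.83% a full CRE and 21.2% a core. These matches describe the letters only.

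In the values, the early genes were not called at 6 h, 4 were called higher at 12 h, and 5 higher and 1 lower at 18 h. Values are log2 signals of the authors' normalized table, and each gene is represented by whichever of its probe sets averaged highest across the 16 arrays. Probe sets were tested if they lay at or above 5 in at least 4 arrays, which all 10 lead probe sets did, and a gene was called where limma gave an adjusted p below 0.05 over all 13410 tested probe sets. Myc met that minimum only through its 12 h and 18 h arrays, so that it had to differ. The main counts are also given without it, or name it as included. At 6 h against sham, 0 of 10 were called by limma (1 of 10 at an unadjusted p under 0.05), where 0.283% of all tested probe sets were called and 5.7% had an unadjusted p under 0.05. At 12 h, Egr1, Myc, Nr4a1 and Klf10 were higher, 4 of 10, where 3.77% of all tested probe sets were called higher. At 18 h, Egr1, Myc, Ier2, Klf6 and Klf10 were higher, 5 of 10, where 5.2% were called higher, and Egr2 was lower, where 4.96% were called lower. Over the 9 members with means of at least 5 in both compared groups, all but Myc, 3 were higher at 12 h, and 4 were higher and 1 lower at 18 h. By the same rule 3.51% of all tested probe sets were called higher at 12 h, and 4.81% higher and 4.71% lower at 18 h. The median difference of the 10 genes was 0.12 at 6 h, 0.43 at 12 h and 0.74 at 18 h, beside 0.02, 0.02 and 0.01 for all tested probe sets. Without Myc the members' medians were 0.07, 0.22 and 0.68. The moderated F-test of the 3 times against sham called 7 of the 10, Myc among them, where 10.2% of all tested probe sets were called.

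**Figure D1:**
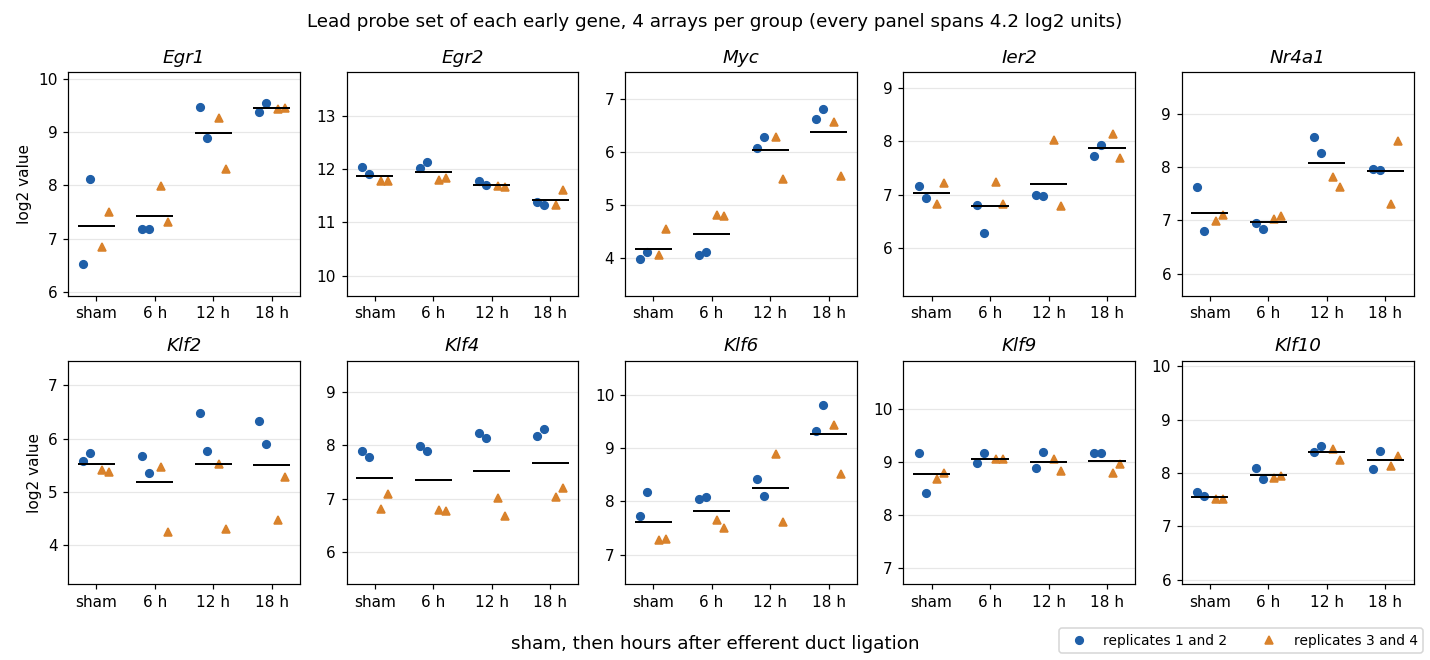
Log2 value of the lead probe set of each gene (vertical axis) in sham and at 6, 12 and 18 h of ligation (horizontal axis), with 1 point per array and a black line at the mean of 4 arrays. Circles are replicates 1 and 2 and triangles replicates 3 and 4. Egr1 and Myc stand higher at 12 and 18 h than in sham, Klf6 is highest at 18 h, Egr2 is lowest at 18 h, and Klf4 divides by replicate pair in every group.

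Some facts about the arrays bear on these values. Replicates 3 and 4 differed from replicates 1 and 2 across the table, with 36.9% of tested probe sets called between them when group was in the model, so differences are also given within each pair. Within replicates 3 and 4, a bacterial dap control transcript lay at 6.93 to 7.93 on sham and 6 h arrays and at 2.22, the lowest value of the table, on 12 h and 18 h arrays, so that ligation for 12 or 18 h and this array set cannot be told apart in that pair. All 11 epithelial markers on the array were tested, among them the epididymal genes Cst8 and Adam7. Markers of other cells were present as well: 10 of 12 macrophage, 9 of 10 fibroblast, 7 of 8 smooth muscle and 4 of 9 endothelial markers reached the minimum level, while Pecam1, Tek, Tie1, Vwf and Flt1 did not. Sperm markers fell with ligation: of 7 on the array 3 were tested, Prm1, Odf1 and Smcp, and limma called 1 of them lower at 6 h and 3 at 12 h and at 18 h, with medians of -3.99, -4.05 and -4.63. All 3 had means under 5 at 12 h and at 18 h, and means of 7.94 to 8.91 in sham. Their high sham values favoured them for the test, so these calls are no independent support for the fall. Summed log2 levels of the 3 per array were 20.2 to 29 in sham, 9.3 to 21.9 at 6 h, 9.3 to 15.1 at 12 h and 9.3 to 11 at 18 h. The part of this fall in the early gene values was not tested. In a bulk piece of tissue, fewer cells of a type and less RNA per cell cannot be told apart.

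Egr1 (probe set 1368321_at) encodes a zinc finger transcription factor and is among the first genes that growth signals induce. Its log2 values were 6.52, 8.12, 6.84 and 7.50 in sham, 7.19, 7.18, 7.99 and 7.31 at 6 h, 9.48, 8.89, 9.26 and 8.31 at 12 h, and 9.38, 9.54, 9.44 and 9.46 at 18 h. All 12 h and 18 h arrays lay above all sham arrays, and the 4 arrays at 18 h lay close together while the sham arrays were spread widely. Egr1 rose 3.34-fold at 12 h, a log2 difference of 1.74 ± 0.32 (SE, n = 4 arrays in each group; limma adjusted p = 0.00348). At 18 h it had risen 4.62-fold, by 2.21 ± 0.32 (limma adjusted p = 0.000449). At 6 h its difference was 0.17 ± 0.32, with a 95% interval of -0.51 to 0.85, and it was not called. Within replicates 1 and 2 the 18 h difference was 2.14, and within replicates 3 and 4 it was 2.28. With only the 12 h and sham arrays in the fit, the 12 h call was lost (adjusted p between 0.0528 and 0.0921 there and within either pair of replicates).

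Egr2, which encodes a closely related factor, differed in the other direction. Its lead probe set, 1387306_a_at, read 12.04, 11.91, 11.78 and 11.78 in sham, 12.02, 12.13, 11.80 and 11.84 at 6 h, 11.78, 11.71, 11.68 and 11.67 at 12 h, and 11.39, 11.32, 11.33 and 11.61 at 18 h. The 18 h arrays lay below all arrays of the other 3 groups, by little. Egr2 fell by 0.46 ± 0.10 at 18 h, to 0.725 of the sham level (limma adjusted p = 0.00899). Its second probe set, 1398266_a_at, had means of 8.91 at 18 h and 9.96 in sham. That difference of -1.05 ± 0.36 missed the threshold (limma adjusted p = 0.0836). The same probe set was lower in replicates 3 and 4 than in replicates 1 and 2, with a difference of -0.91 ± 0.08. The ± 0.36 is from a fit with no term for the pairs, so it takes in that division. A fit of this probe set with the pairs as a block is not given. The differences at 18 h within the pairs were -0.88 and -1.23 for the second probe set, and -0.62 and -0.31 for the lead one. Over the 16 arrays, after the 8 arrays of replicates 1 and 2 and the 8 of replicates 3 and 4 were each centred on their mean, Egr1 and Egr2 had a Pearson correlation of -0.81. These points share the group changes, so this describes the pattern and is no separate result.

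Myc (probe set 1368308_at) encodes the transcription factor that drives growth and ribosome synthesis. Its values were 3.99, 4.11, 4.07 and 4.55 in sham, 4.07, 4.12, 4.81 and 4.80 at 6 h, 6.08, 6.27, 6.27 and 5.48 at 12 h, and 6.62, 6.81, 6.55 and 5.54 at 18 h. Every sham and 6 h array lay under 5 and every 12 h and 18 h array above it. Myc was higher by 1.85 ± 0.28 at 12 h (limma adjusted p = 0.00082) and by 2.20 ± 0.28 at 18 h (limma adjusted p = 0.000155), n = 4 each. Because the 12 h and 18 h arrays alone brought it into the test, these p-values are no independent support for the difference. Since sham lay under the minimum level of 5, the size of the difference depends on the background correction. Replicate 4 was the lowest of its group at 12 h and at 18 h, and the 18 h difference was 2.67 within the first pair of replicates (1 and 2) and 1.74 within the other pair.

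Ier2 (probe set 1372389_at), a nuclear early response protein gene, read 7.16, 6.93, 6.83 and 7.21 in sham, 6.81, 6.28, 7.23 and 6.83 at 6 h, 6.99, 6.97, 8.03 and 6.78 at 12 h, and 7.73, 7.94, 8.13 and 7.69 at 18 h. At 12 h replicate 3 alone stood near the 18 h level, and at 18 h all 4 arrays lay above sham. Ier2 was higher at 18 h by 0.84 ± 0.25 (limma adjusted p = 0.0437, n = 4 each), close to the threshold. The call was lost in 12 of the 16 fits that left out 1 array, at adjusted p = 0.0508 to 0.121 with differences of 0.755 to 0.902. Those were the fits without any one array of sham or of 18 h, without 6 h replicates 1 or 4, and without 12 h replicates 1 or 2. Without 12 h replicate 3 the adjusted p was 0.00699. It was 0.101 with the array set as a block and 0.125 when no probe set was filtered out.

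Nr4a1 (probe set 1386935_at) encodes an orphan nuclear receptor that stress and cyclic AMP induce. It had 7.63, 6.80, 6.98 and 7.10 in sham, 6.95, 6.83, 7.02 and 7.08 at 6 h, 8.57, 8.27, 7.81 and 7.62 at 12 h, and 7.96, 7.94, 7.31 and 8.49 at 18 h. The 12 h and 18 h arrays lay above all 6 h arrays, while sham replicate 1 overlapped with both later times. Nr4a1 rose by 0.94 ± 0.25 at 12 h against sham (limma adjusted p = 0.0322) and by 1.10 ± 0.25 against 6 h (limma adjusted p = 0.0234), n = 4 each. At 18 h the difference from sham was 0.80 ± 0.25 and missed the threshold (adjusted p = 0.0577), but passed it with the replicate number or the array pair as a block, with array weights and at a minimum level of 7 (adjusted p = 0.0208 to 0.0475, of which 0.0371 with the replicate block). It also passed without sham replicate 1, 12 h replicate 1 or 18 h replicate 3 (0.0206 to 0.0476). The 12 h call against sham was lost without sham replicate 2, 3 or 4 and without 12 h replicate 1 or 2 (0.0799 to 0.106). It was also lost with no filter, with only those groups in the fit and within either pair of replicates (0.0619 to 0.346). The 18 h and 12 h groups differed by -0.14, which limma did not call.

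The Klf genes encode zinc finger factors that bind GC-rich and CACCC sequences, and they divided into 2 that rose and 3 that were not called. Klf6 (probe set 1388986_at), which encodes a factor induced by injury and known as a growth suppressor, had lead values of 7.72, 8.18, 7.28 and 7.29 in sham, 8.05, 8.08, 7.64 and 7.50 at 6 h, 8.42, 8.10, 8.89 and 7.62 at 12 h, and 9.31, 9.80, 9.44 and 8.51 at 18 h. At 18 h every array was above every sham array, and at 12 h the groups overlapped. Klf6 rose 3.14-fold at 18 h, by 1.65 ± 0.31 (limma adjusted p = 0.0029, n = 4 each), with 1.61 and 1.69 in the 2 pairs of replicates. At 12 h the difference was 0.64 ± 0.31 and was not called (adjusted p = 0.266, or 0.0301 with array weights). Its other probe sets, 1387060_at and 1395557_at, rose at 18 h by 2.25 ± 0.41 (limma adjusted p = 0.0027) and 2.80 ± 0.67 (limma adjusted p = 0.0162). All 3 Klf6 probe sets were thus called higher at 18 h. For 1395557_at the groups overlapped, with 6.17 in 18 h replicate 4 and 6.24 in sham replicate 2. Only 2 of its 4 sham arrays lay at or above 5. That probe set was also lower in replicates 3 and 4 than in replicates 1 and 2, with a difference of -1.4 ± 0.3.

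**Figure D2:**
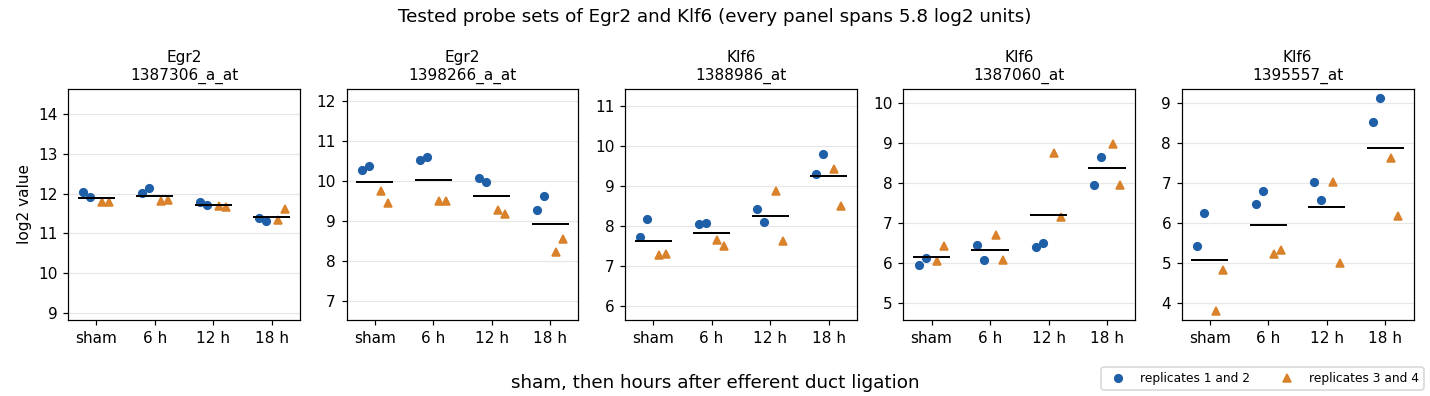
Log2 values (vertical axis) of the 2 tested probe sets of Egr2 and the 3 tested probe sets of Klf6 in sham and at 6, 12 and 18 h (horizontal axis), with 1 point per array, circles for replicates 1 and 2, triangles for replicates 3 and 4, and a black line at the group mean. All 3 Klf6 probe sets have their highest mean at 18 h and both Egr2 probe sets their lowest, and 12 h replicate 3 stands above the other 12 h arrays in Klf6 probe set 1387060_at, at 8.74.

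Klf10 (probe set 1368650_at), first described as a gene induced early by TGF-beta, moved with little spread between arrays. Its values were 7.64, 7.57, 7.51 and 7.51 in sham, 8.09, 7.89, 7.91 and 7.94 at 6 h, 8.39, 8.51, 8.46 and 8.24 at 12 h, and 8.08, 8.42, 8.14 and 8.32 at 18 h. Every ligated array at all 3 times lay above every sham array. Klf10 rose by 0.85 ± 0.10 at 12 h (limma adjusted p = 9e-05) and by 0.68 ± 0.10 at 18 h (limma adjusted p = 0.000387), n = 4 each. At 6 h its difference of 0.40 ± 0.10 had the smallest p among the 10 genes but was not called (limma adjusted p = 0.17, or 0.0203 with array weights). It was also the only member whose 6 h arrays all lay above sham, as did those of 2.87% of all tested probe sets. In mouse liver Klf10 is known to be driven by the circadian clock. Of 12 tested clock genes, 1 rose and 3 fell at 12 h against sham, where 3.77% of all tested probe sets were called higher and 4.09% lower. At 18 h 1 rose and 3 fell as well, where 5.2% were called higher and 4.96% lower. Bhlhe41 rose at 18 h by 1.63 ± 0.25, and Npas2, Per2 and Clock fell, with differences of -1.04 ± 0.29, -0.90 ± 0.22 and -0.42 ± 0.09 (limma adjusted p = 0.000825, 0.0369, 0.0199 and 0.0112). Npas2 had a mean of 4.58 at 18 h, under the minimum level. Over the 10 clock genes with means of at least 5 in both groups, 1 rose and 2 fell at 18 h. The part of the clock genes in the Klf10 result was not tested.

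Klf9 (probe set 1370209_at), a gene that glucocorticoids induce, was not called at any time. It had 9.17, 8.41, 8.68 and 8.80 in sham, and its ligated arrays ran from 8.80 to 9.19. The differences were 0.30, 0.22 and 0.26 at 6, 12 and 18 h, each ± 0.15, with a 95% interval of -0.05 to 0.57 at 18 h. A further 2 probe sets of Klf9 lay at 2.22 to 2.57 on all arrays and were not tested. Among the 9 tested glucocorticoid targets, 1 was called at 6 h, Ddit4, higher by 0.94 ± 0.16 (limma adjusted p = 0.0216). At 12 h 4 rose and 0 fell. At 18 h 4 rose and 0 fell: Cebpd by 2.88 ± 0.23, the metallothionein gene Mt2A by 2.16 ± 0.30, Ddit4 by 0.77 ± 0.16 and Sgk1 by 0.68 ± 0.16. Of all tested probe sets, 0.112%, 3.77% and 5.2% were called higher at 6, 12 and 18 h. Fkbp5, which the glucocorticoid receptor induces in many tissues, stood at -0.15 ± 0.18 at 18 h (limma adjusted p = 0.717). It was 1 of the 5 targets not called at 18 h. The part of glucocorticoids in the Klf9 values was not tested.

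Klf4 (probe set 1387260_at), a factor of barrier epithelia and endothelium, was divided by replicate pair and was not called at any time. It had 7.90, 7.79, 6.80 and 7.08 in sham, and 8.18, 8.30, 7.03 and 7.20 at 18 h. In each of the 4 groups, both arrays of replicates 1 and 2 were above both of replicates 3 and 4, and the difference between the pairs was -1.13 ± 0.08 (limma adjusted p = 4.78e-07). Against sham, Klf4 stood at -0.04, 0.12 and 0.29 at 6, 12 and 18 h, each ± 0.44, and the 18 h interval was -0.65 to 1.22. That fit had no term for the pairs, so its SE and interval take in the division between them. Within replicates 1 and 2 the differences were 0.09, 0.34 and 0.39, and within replicates 3 and 4 -0.17, -0.10 and 0.18. With the replicate number or the array pair as a block, Klf4 was also not called. Fibroblast and macrophage markers divided the same way: 9 of 9 and 8 of 10 were lower in replicates 3 and 4, with medians of -1.51 and -0.90, as were 3 of 7 smooth muscle markers (median -0.25) and 2 of 4 endothelial markers (median -0.20). Of 11 epithelial markers 1 was lower and 2 were higher (median 0.00), and 18.7% of all tested probe sets were lower. Their part in the Klf4 division was not tested.

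Klf2 (probe set 1376569_at), a gene of endothelium and lymphocytes that blood flow induces, was near the minimum level. Its values were 5.59, 5.74, 5.42 and 5.38 in sham, 5.67, 5.35, 5.46 and 4.24 at 6 h, 6.49, 5.77, 5.53 and 4.30 at 12 h, and 6.33, 5.90, 4.47 and 5.29 at 18 h. The difference from sham was -0.04 ± 0.45 at 18 h, with a 95% interval of -1.01 to 0.94, and it was 0.45 within the first pair of replicates and -0.52 within the other pair. Its other 4 probe sets lay between 2.22 and 3.90 and were not tested. Beside it, 1 of the 4 tested endothelial markers was called higher at 18 h, where 5.2% of all tested probe sets were. Kdr rose by 0.95 ± 0.21 (limma adjusted p = 0.00876), while Esam, Emcn and Eng stood at 0.27, 0.23 and 0.77 and were not called. In the same groups the log2 levels of the 4 tested endothelial markers summed to 28 to 30.1 per array at 18 h and 26 to 27.6 in sham. The 11 epithelial markers summed to 123.9 to 128.4 at 18 h and 122.2 to 122.8 in sham, and the 10 macrophage markers to 64.9 to 77.2 and 62.7 to 68.9. Whether these shifts bear on the early genes was not tested.

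**Figure D3:**
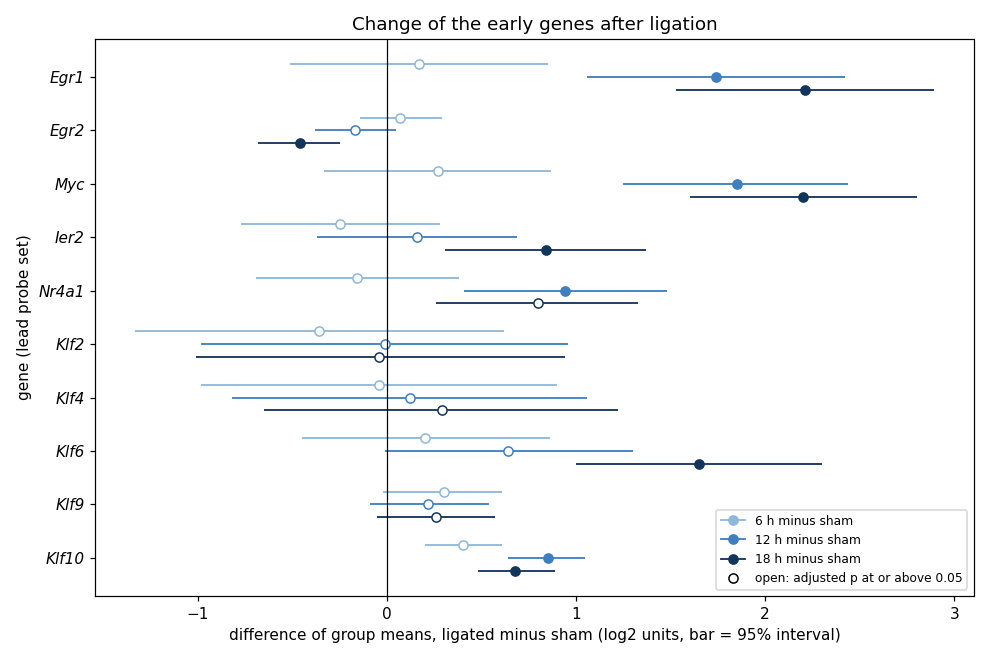
Difference of group means in log2 units (horizontal axis), ligated minus sham, for the lead probe set of each gene (vertical axis) at 6, 12 and 18 h, with the 95% interval of the limma fit as a bar. Filled points passed an adjusted p of 0.05: 0 at 6 h, 4 at 12 h and 6 at 18 h.

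The order in time was tested directly between the ligated groups. From 6 to 12 h, 4 of 10 members were called higher, where 1.82% of all tested probe sets were: Egr1 (1.57 ± 0.32, limma adjusted p = 0.0134), Myc (1.57 ± 0.28, 0.00599), Nr4a1 (given above) and Klf10 (0.44 ± 0.10, 0.0196). Egr1 missed the threshold without 12 h replicate 1 (0.0504). Klf10 missed it without 6 h replicates 2 or 3 and without 12 h replicates 1 or 2 (0.0525 to 0.0634), and Nr4a1 without 6 h replicates 1, 2 or 3 and without 12 h replicates 1 or 2 (0.0609 to 0.0802). Over the 9 members other than Myc the count was 3, where 1.74% of all probe sets with means of at least 5 in both groups were called higher. Egr2 differed by -0.24 ± 0.10 and was not called (adjusted p = 0.231), though all its 12 h arrays lay below all its 6 h arrays. With the array set as a block it was called lower (-0.364, adjusted p = 0.0489). Over all 10 members, without 12 h replicate 1 the count of higher calls was 1, and without 6 h replicates 2 or 3 or 12 h replicate 2 it was 2.

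From 12 to 18 h, limma called 0 of the 10, with 3 at an unadjusted p under 0.05, and 0% of all tested probe sets, with 877 of 13410 (6.54%) at an unadjusted p under 0.05. The 3 were Klf6 (1.01 ± 0.31, adjusted p = 0.462), Ier2 (0.68 ± 0.25, adjusted p = 0.599) and Egr2 (-0.29 ± 0.10, adjusted p = 0.566). So the later calls of Klf6, Ier2 and Egr2 are not shown to differ from their 12 h levels. Between 18 h and 6 h, 5 members were higher, where 3.54% of all tested probe sets were, and 1 was lower, where 4.34% were, and without Myc 4 were higher and 1 lower. Egr1 differed most there (2.04 ± 0.32, limma adjusted p = 0.00158), followed by Myc (1.93 ± 0.28, 0.00101), Klf6 (1.45 ± 0.31, 0.0095), Ier2 (1.09 ± 0.25, 0.0148) and Nr4a1 (0.96 ± 0.25, 0.0302), and Egr2 fell by 0.53 ± 0.10 (0.00498). Nr4a1 lost that call without any one 6 h array and without 18 h replicates 1, 2 or 4 (0.0511 to 0.0795).

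Within each pair of replicates the 18 h difference from sham had the same sign for 9 of the 10 members, Klf2 being the exception. At 12 h the sign was shared by 7. With replicates 3 and 4 alone, limma called 2 members at 18 h, and Egr2, Myc, Klf6 and Ier2 missed the threshold (adjusted p = 0.191, 0.0555, 0.0832 and 0.254). With replicates 1 and 2 alone it called 3, and Egr1, Klf10 and Ier2 missed it (adjusted p = 0.0614, 0.0696 and 0.0775). All arrays stood above sham for 3 members at 12 h and 5 at 18 h, Myc among them at both times. Of all tested probe sets, 6.37% and 7.66% did. All arrays stood below sham for 1 member at 18 h, where 6.53% of all tested probe sets did.

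**Figure D4:**
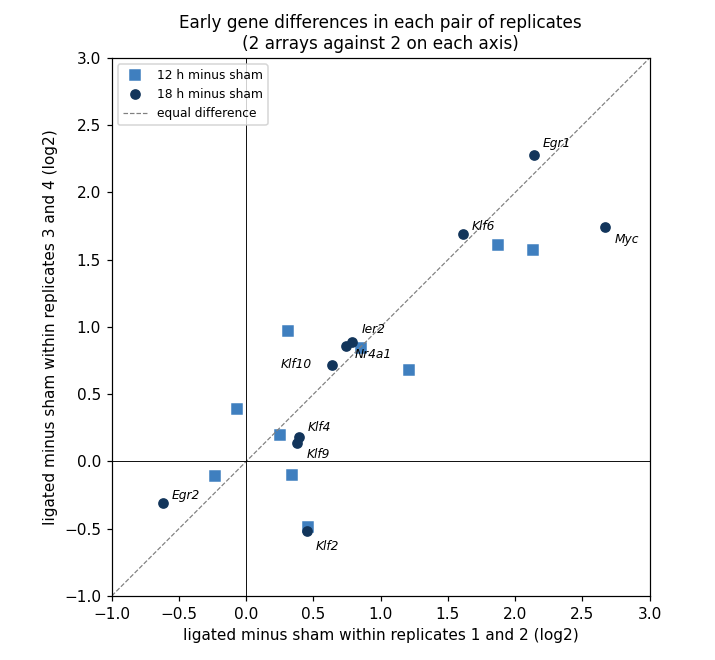
Difference from sham within replicates 3 and 4 (vertical axis, log2) against that within replicates 1 and 2 (horizontal axis, log2) for the 10 genes at 12 h (squares) and 18 h (circles, with names). Points near the dashed line changed alike in both pairs, such as Klf6 at 18 h (1.61 and 1.69), while Klf2 at 18 h had opposite signs (0.45 and -0.52).

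Other immediate early genes moved too. Of 29 further such genes on the array, 16 reached the minimum level. At 18 h, 14 of the 16 rose and 0 fell, with a median of 1.10, and at 12 h 5 rose and 1 fell, with a median of 0.76. Of all tested probe sets, 5.2% were called higher and 4.96% lower at 18 h, and 3.77% and 4.09% at 12 h. The largest rises at 18 h were those of Atf3, a stress-induced factor gene (3.69 ± 0.77, limma adjusted p = 0.0067), Fos (2.55 ± 0.57, 0.0105), Csrnp1 (1.97 ± 0.34, 0.00164) and the ERK and p38 phosphatase gene Dusp1 (1.94 ± 0.46, 0.0157). Sham means of Atf3, Fos and Csrnp1 were 2.35, 4.79 and 4.40, with 0, 2 and 0 of 4 sham arrays at or above 5, so these 3 needed ligated arrays to reach the minimum level. Over the other 13 genes, 11 rose and 0 fell at 18 h, with a median of 0.72, and 4 rose and 1 fell at 12 h, with a median of 0.48. Jun, which pairs with Fos in AP-1, averaged 10.84 at 18 h and 9.16 in sham, a rise of 1.68 ± 0.25 (limma adjusted p = 0.000665). The gene lowered at 12 h was Ccn2, a matrix-associated growth factor gene (-1.10 ± 0.29, limma adjusted p = 0.0324). At 6 h limma called 0 of the 16, with 0 at an unadjusted p under 0.05.

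The closest relatives of the members were mostly not called. Among the 7 tested of 13 other Klf and Sp genes on the array, 1 rose and 1 fell at 18 h (median -0.03). Of all tested probe sets, 5.2% were called higher and 4.96% lower at 18 h. Klf5, a gene of proliferating epithelium, had means of 7.71 at 18 h and 4.47 in sham and rose by 3.24 ± 0.64 (limma adjusted p = 0.00475), the sham level being under 5. Its high 18 h level favoured it for the test, so this p-value is no independent support for the rise. Over the 6 genes with means of at least 5 in both groups, 0 rose and 1 fell at 18 h. By that rule 4.81% of all tested probe sets were called higher and 4.71% lower. Klf15, a metabolic regulator gene, fell, with differences of -0.66 ± 0.17 at 12 h and -1.01 ± 0.17 at 18 h (limma adjusted p = 0.0289 and 0.00155). Egr3, Egr4, Nr4a2 and Nr4a3 did not reach the minimum level. For SRF and the ternary complex factor genes, which act at CArG boxes, limma called 0 of 5 at any time, with 0 of 5 at an unadjusted p under 0.05 against sham at each of the 3 times. Srf itself stood at 0.24 ± 0.13 at 18 h (adjusted p = 0.326).

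Genes that act with or downstream of Egr1 and Myc were counted in the same way. Among the 6 tested of 8 Egr corepressor and target genes on the array, 2 rose at 12 h: Nab2, which encodes a corepressor that Egr proteins induce (0.67 ± 0.17, limma adjusted p = 0.0279), and Vegfa (0.89 ± 0.18, 0.00725). Of all tested probe sets, 3.77% were called higher at 12 h. At 18 h limma called 0 of the 6, with 1 at an unadjusted p under 0.05, and Nab2 stood at 0.19 ± 0.17. Of 7 tested Myc partners and antagonists, limma called 0 at 12 h or at 18 h against sham, with 0 and 2 at an unadjusted p under 0.05. Max, the obligate partner of Myc, stood at 0.01 ± 0.19 at 18 h. Between 18 h and 6 h, 1 of the 7 was called lower, Mxd4, with a difference of -1.03 ± 0.29 (limma adjusted p = 0.0408). Of all tested probe sets, 4.34% were called lower in that comparison. Of 23 tested Myc targets, 4 rose and 1 fell at 18 h, with a median of 0.40. Of all tested probe sets, 5.2% were called higher and 4.96% lower. The 1 that fell is 4.35% of the Myc targets, near the share of all tested probe sets. The largest of these changes were the rises of Shmt2, a serine metabolism gene (0.91 ± 0.19, limma adjusted p = 0.00584), and of the nucleolar genes Gnl3 (0.55 ± 0.16, 0.044) and Fbl (0.49 ± 0.12, 0.0228), and the fall of Hk2, a hexokinase gene (-1.04 ± 0.30, 0.0437).

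Most genes on a list of ERK output, genes whose expression follows ERK activity, fell. Of 10 tested, 8 fell at 12 h and 6 at 18 h, and 0 rose, with medians of -1.87 and -1.74. Of all tested probe sets, 4.09% were called lower at 12 h and 4.96% at 18 h. With means of at least 5 in both compared groups, 7 of 9 fell at 12 h and 6 of 10 at 18 h. The list leaves out the early genes given above, with Egr1 and Fos among those that rose. Etv5 and Etv4, ETS factor genes that ERK signalling keeps up, fell at 18 h, with differences of -4.37 ± 0.57 and -3.92 ± 0.43, as did Dusp5 and Dusp6, whose products inactivate ERK, with -2.37 ± 0.23 and -2.36 ± 0.33 (limma adjusted p = 0.000212, 5.04e-05, 1.56e-05 and 0.000335). At 6 h, when none of the members was called by limma, 2 of the 10 ERK output genes had fallen. Of all tested probe sets, 0.172% were called lower at 6 h. All of these comparisons with sham share the same 4 sham arrays. The lists were chosen with earlier results of these arrays known, so their counts are descriptions.

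**Figure D5:**
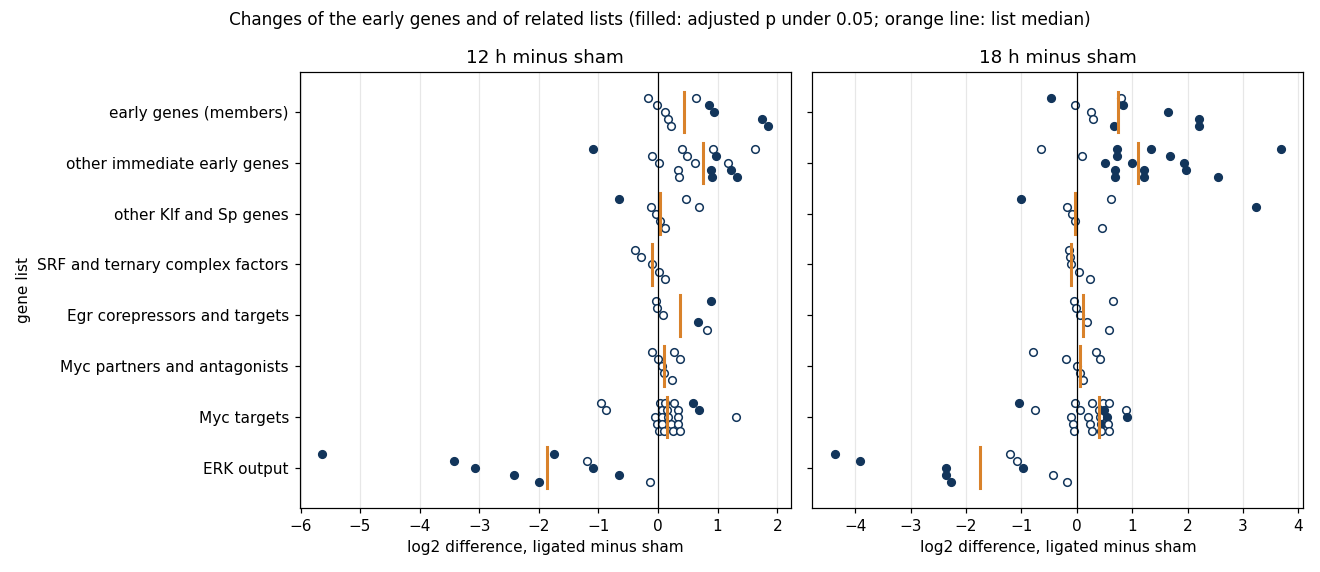
Log2 difference from sham at 12 h (left) and 18 h (right) for each tested gene (1 point per gene) of the 10 early genes and of 7 related lists on the vertical axis. Filled points passed an adjusted p of 0.05 and the orange line is the list's median, which at 18 h was 0.74 for the early genes, 1.10 for other immediate early genes and -1.74 for ERK output genes.

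The genes most like some members in pattern were found by Pearson correlation over the 16 arrays, with replicates 1 and 2 and replicates 3 and 4 centred separately. The search covered tested probe sets with 1 symbol, leaving out those of the member itself and symbols that begin with LOC or RGD. For Egr1 the closest were Zfp36 (0.972), Fos (0.961), Rhob (0.949), Cebpd (0.923) and Isg15 (0.919). For Myc they were Cebpd, with 2 probe sets (0.958 and 0.952), Vwa1 (0.957), Mmp7 (0.95) and Tubb6 (0.949), and for Nr4a1 Orai1 (0.955), Slc16a10 (0.944), Rhcg (0.943), Tpcn1 (0.942) and Suox (0.939). Klf4 and Klf9, which were not called, had lower best values, led by C1s at 0.867 and Rab13 at 0.875. Among the members, Egr1 and Myc correlated at 0.915 and Ier2 and Klf6 at 0.878. All of these points share the group means, so the values describe patterns only.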

How the data were processed

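RNA of 16 tissue samples, 4 each of sham and 6, 12 and 18 h of ligation, was hybridised to Affymetrix rat arrays, 1 per sample. The authors deposited 1 log2 value per probe set and array, made with GCRMA per the submitters' processing notes. No GCRMA version could be given from the sources used here. GCRMA corrects background by probe sequence, normalizes by quantiles and summarises, so low values gather near a floor of 2.22 and small differences there carry little. The table held 31099 probe sets, of which 57 controls were left out.

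Symbols came from the platform annotation, as 1 symbol for 20826 probe sets, several for 436 and none for 9780. The tests used limma 3.58.1 under R 4.3.3, with lmFit and eBayes in 1 fit of 4 group means over all arrays, with Benjamini-Hochberg adjustment over the 13410 probe sets at or above 5 in at least 4 arrays. The procedure was tested on simulated data. The number of arrays limits the precision.

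Named genes were the 10 members, up to 4 called genes of each list with the largest change, or the one of smallest p where none was called, a few fixed genes (Dusp6, Etv4, Etv5, Fos, Jun, Atf3), and the 5 probe sets most like Egr1, Myc, Klf4, Klf9 and Nr4a1. Max, Mxd4, Fkbp5 and Kdr, the Nab2 value at 18 h and the genes named for not being tested were picked with their values already seen. The members and lists were chosen with earlier results of these data known. An alternative added after the values were seen counted only genes with means of at least 5 in both compared groups. The other alternatives were another prior, other filters and normalizations, blocks, array weights (statmod 1.5.0), subsets of arrays, averaged probe sets and each array left out.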

Additional observations from a re-analysis of the deposited data

Results flagged for a closer look

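In 52 groups of 4 arrays (13 tested member probe sets in 4 groups), 2 arrays stood far from the other 3 of their group, where chance gives about 1 such group in 20. Egr1 at 6 h read 7.99 in replicate 3, with the nearest other array at 7.31. Without that array its 6 h difference from sham was -0.017, where it was 0.17 with it, and it was not called either way. Ier2 at 12 h read 8.03 in replicate 3, with the nearest other array at 6.99. Without that array its 12 h difference from sham was -0.12, where it was 0.16 with it, and the 18 h difference from sham kept its value of 0.84 with an adjusted p of 0.00699.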

How the results depend on the processing

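The count of members called held within 1.5 times of its value in most alternatives, and the cause of the exceptions was not tested. Fits within a pair of replicates or with only the compared groups also had fewer arrays. At 6 h it was 1 with array weights (0 as reported). At 12 h it was 2 within replicates 1 and 2, 1 within replicates 3 and 4 and 2 with only the compared groups (4 as reported). At 18 h it was 3 and 2 within the pairs (6 as reported). Between 12 h and 6 h it was 2 without a filter, 2 and 0 within the pairs (4 as reported), and 1 to 4 with 1 array left out. Between 18 h and 6 h it was 0 within replicates 3 and 4 (6 as reported), and the F-test gave 4 and 1 within the pairs (7 as reported). With the replicate block the counts were 0, 4 and 7 at 6, 12 and 18 h. Whether the replicate numbers pair the arrays is unknown. Correlations of same-numbered deviations ran from 0.00651 to 0.556, and those of other numbers within the same pair of replicates from -0.00558 to 0.63, so the numbers were not taken as pairs. Of 60 member results the block ended 0 calls and added 1, Nr4a1 at 18 h.

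Directions turned only for differences that were not called. Egr1 at 6 h was -0.13 in replicates 1 and 2, and -0.0696 to 0.464 with 1 array left out. Klf2 at 12 and 18 h was 0.369 and 0.347 with the array set block, 0.393 and 0.143 with array weights and 0.46 and 0.451 in replicates 1 and 2, and -0.336 to 0.395 and -0.314 to 0.307 with 1 array left out. Klf4 at 6 h was 0.232 with array weights, 0.0912 in replicates 1 and 2 and -0.249 to 0.157 with 1 array left out; at 12 h it was -0.0982 in replicates 3 and 4 and -0.12 to 0.396 with 1 array left out. Ier2 at 12 h was -0.00215 with array weights, -0.0676 in replicates 1 and 2 and -0.12 to 0.296 with 1 array left out. In replicates 3 and 4, Ier2 and Nr4a1 at 6 h were 0.0111 and 0.00624, and Nr4a1 ran from -0.269 to 0.00729 with 1 array left out. Between 12 h and 6 h, Klf9 was 0.00752 with the array set block and Klf4 -0.0817 to 0.435 with 1 array left out. Between 18 h and 6 h, Klf9 was 0.0424 with the array set block, 0.0973 in replicates 1 and 2 and -0.088 to 0.036 with 1 array left out. Between 18 h and 12 h, Klf4 was -0.107 with array weights, and Nr4a1 0.182 and Klf9 -0.0585 in replicates 3 and 4; with 1 array left out Klf2, Klf4, Klf9 and Nr4a1 ran from -0.43 to 0.32, -0.111 to 0.406, -0.0215 to 0.109 and -0.333 to 0.0602.

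The counts over all tested probe sets varied more. Over the 13 other alternatives they ran from 3 to 104 at 6 h (38 as reported), 477 to 2426 at 12 h (1054), 827 to 2179 at 18 h (1362), 115 to 1471 between 12 h and 6 h (574), 0 to 110 between 18 h and 12 h (0) and 460 to 2030 between 18 h and 6 h (1057). Myc and Klf2 were not tested at the stricter minimum of 7, and Klf2 and Klf9 were not tested with probe sets averaged by gene. Levels under 5 limit what can be said of Myc, Klf2 and Klf5.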
